A study of Mus musculus with 18 samples.

Results

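The genes of the telomere-capping complex shelterin and of the telomerase catalytic subunit were examined in mouse bone marrow mesenchymal stem cells (MSCs), adherent stromal cells grown from flushed marrow. The 8 genes Terf1, Terf2, Terf2ip, Pot1a, Pot1b, Tinf2, Acd and Tert were taken by symbol from the 27179 genes of a normalized read count table. All 8 reached the mean of 10 normalized counts over the 18 libraries that a gene needed to be tested, as did 14353 genes in all. RNA was sequenced from 18 cultures of C57BL6 MSCs, 6 in each of 3 groups, all harvested at day 7. Young MSCs came from mice aged 6 weeks and old MSCs from mice aged 18 to 24 months, and both were cultured without treatment. Rejuvenated old MSCs were old MSCs kept in co-culture with young MSCs across a membrane with 0.4 µm pores, through which the labels say that soluble factors but not cells can pass. The labels do not say whether the 6 cultures of a group came from separate animals, so the p-values measure the spread between cultures, and a co-culture of old with old MSCs was not analysed here. Reads on genes numbered 22936251 to 25648769 in the young, 24965971 to 29559194 in the old and 26018046 to 29155223 in the rejuvenated old libraries.

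Telomeres are the repeat-bearing ends of chromosomes, and shelterin keeps the cell from treating them as broken DNA. TRF1 and TRF2 (Terf1, Terf2) bind the double-stranded repeats, RAP1 (Terf2ip) rides on TRF2, TIN2 (Tinf2) bridges both TRFs to TPP1 (Acd), and TPP1 carries the POT1 proteins, which bind the single-stranded overhang and which mouse encodes in a pair of genes, Pot1a and Pot1b. Telomerase, the reverse transcriptase TERT with its RNA template Terc, adds repeats to the overhang and is recruited through TPP1. Telomere length, telomerase activity and protein were not measured in these libraries.

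Several libraries went against their description. The study's methods name male mice, yet the summed normalized count of the Y-linked genes Ddx3y, Eif2s3y, Kdm5d and Uty was 0 to 5.15 in the young libraries (median 0), against 5035 to 5604 in the old and 4898 to 5980 in the rejuvenated old libraries. Xist, which is transcribed from the inactive X chromosome, was at 21.2 to 41.2 in young libraries, 1.97 to 14.4 in old ones and 4.83 to 10.3 in rejuvenated old ones. Whatever these values stand for differed between the young and the other cultures together with age, and both cannot be told apart. Among stromal markers, Thy1 was at 175 to 227 in young but 0 to 3.23 in old libraries, while Eng (endoglin) was at 147 to 175 in young and 7008 to 7681 in old libraries. Cd34 was at 6787 to 7191 in young and 19.4 to 28 in old libraries. By flow cytometry of surface protein, the study reported MSCs of both ages negative for CD34. Rejuvenated old replicate 1 stood apart from its group, with Cd34 at 402 there and at 24.2 to 41.9 in the other 5. Thy1 was at 21.6 in that library and at most 0.951 in the other 5. Between rejuvenated old and old MSCs, the calls of the 8 genes did not change when that library was left out.

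Macrophage transcripts also moved with the groups. The 12 macrophage markers summed to 926 to 1040.2 normalized counts in young libraries (median 971), 15625 to 19672 in old (median 17567) and 15757 to 19191 in rejuvenated old (median 16593). All 12 were lower in young than in old MSCs, where 85.7% of all genes tested differed and 44.1% were lower. Lyz2, the most abundant in old and rejuvenated old libraries, had a mean of 173 in young and 10154 in old libraries, and Adgre1 (F4/80) and the leukocyte gene Ptprc (CD45) were at 0 in every young library but at 243 to 333 and 162 to 208 in old ones. The study's flow cytometry reported MSCs of both ages negative for CD45 protein. In bulk RNA, fewer cells of a type and less RNA per cell cannot be told apart. The part of these transcripts, and of the Y-linked difference, in the telomere gene results between young and old MSCs was not tested. Between rejuvenated old and old MSCs 10 of the 12 macrophage markers did not pass the test, while Itgam was higher (log2 fold change 0.48, adjusted p = 0.00548) and Cd68 lower (-0.32, adjusted p = 0.000102), where 41.6% of all genes tested passed.

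Young MSCs held more transcript than old MSCs for both TRFs and for the bridge that links them to POT1, and less Pot1b. By limma on log2(normalized count + 1), with a Benjamini-Hochberg adjusted p under 0.05 over all genes tested, 6 of the 8 genes differed between young and old MSCs. Terf1, Tinf2, Acd, Terf2 and Pot1a were higher in young MSCs and Pot1b was lower, while Tert and Terf2ip did not pass the test. Passing was common: 85.7% of all genes tested differed in this comparison, 41.6% higher and 44.1% lower in young MSCs. In 5 of the 8 the ranges of the groups did not overlap, as in 73.9% of all genes. The median log2 fold change of the 8 genes was 0.43, against -0.02 over all genes tested, and the median absolute log2 fold change was 0.62 against 0.60.

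**Figure D1:**
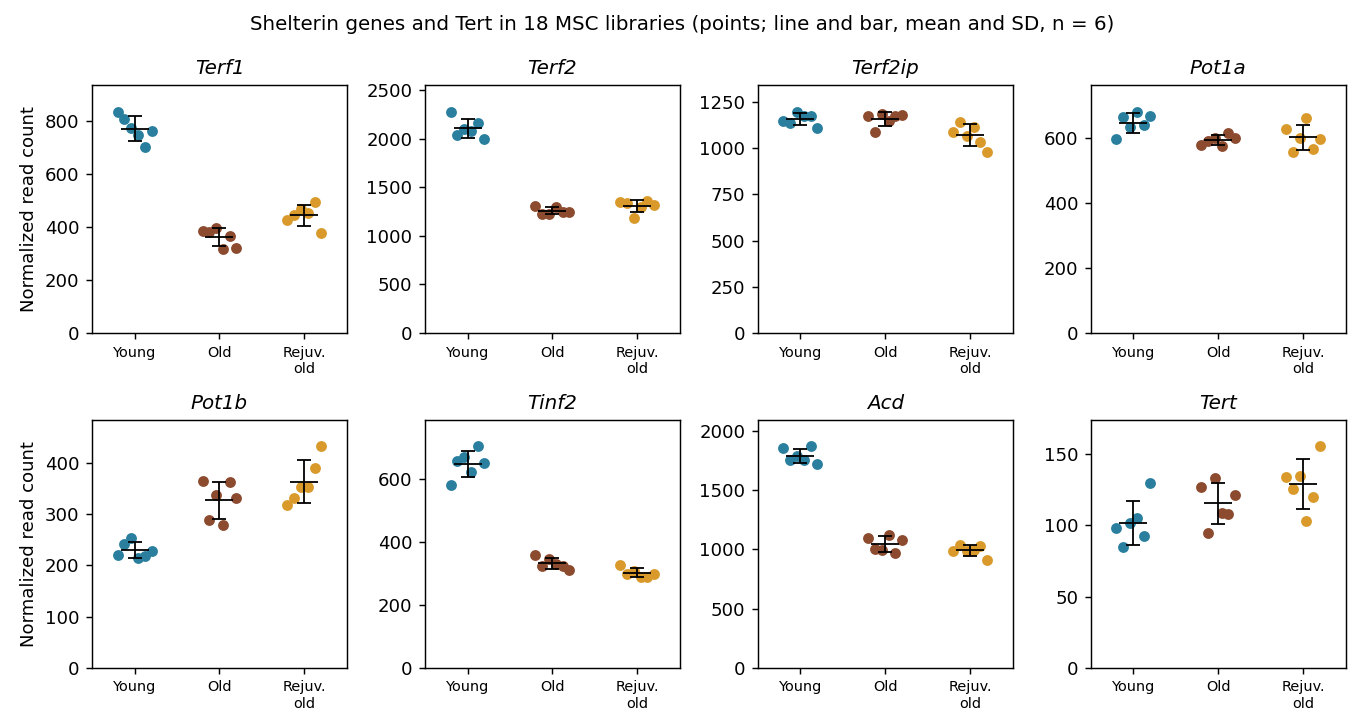
Normalized read counts (y axis, from 0) of the 8 genes in the 18 libraries, by group (x axis), with each point a library and the line and bar the mean and SD of 6. Terf1, Terf2, Tinf2 and Acd of the young libraries lie above all libraries of the other groups, and Pot1b lies below them.

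Terf1 encodes TRF1, which binds duplex repeats and helps the replication fork through them. Its normalized count ran from 703 to 837 in young libraries (median 769), from 318 to 399 in old (median 374) and from 379 to 495 in rejuvenated old (median 449). All 6 young libraries lay above all others, and 5 of the 6 rejuvenated old libraries lay above the highest old library. The means of young, old and rejuvenated old MSCs were 772 ± 46.6, 362 ± 34.2 and 445 ± 39.3 (SD, n = 6 each). Terf1 was 2.13-fold higher in young than in old MSCs (log2 fold change 1.09, SE 0.07, adjusted p = 4.51e-13). It was 1.23-fold higher in rejuvenated old than in old MSCs (log2 fold change 0.30, 95% interval 0.16 to 0.44, adjusted p = 0.00113), and without rejuvenated old replicate 1 the log2 fold change was 0.31 (adjusted p = 0.00151). Terf1 lies on chromosome 1 (15805546 to 15844052, plus strand, GRCm38), where the 800 genes tested had a median log2 fold change of -0.69 between young and old MSCs, and 69 of them had a higher fold change than Terf1. Terf2, Terf2ip and Acd lie on chromosome 8, where the median over 754 genes was 0.15.

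Terf2 encodes TRF2, which shields the end from the ATM pathway and from end joining. Its count was 2003 to 2282 in young (median 2088), 1223 to 1306 in old (median 1250.5) and 1183 to 1365 in rejuvenated old libraries (median 1327). The young libraries stood clear of both other groups, whose ranges overlapped. Terf2 was 1.67-fold higher in young than in old MSCs (log2 fold change 0.74, SE 0.04, adjusted p = 1.44e-14). Between rejuvenated old and old MSCs its log2 fold change was 0.05 (95% interval -0.03 to 0.13, adjusted p = 0.280), which did not pass the test. Terf2ip encodes RAP1, which depends on TRF2 for its place at the telomere. It was measured at 1109 to 1199 in young (median 1162), 1088 to 1184 in old (median 1175) and 977 to 1142 in rejuvenated old libraries (median 1077). Young and old libraries covered nearly the same range, and 4 of the 6 rejuvenated old libraries lay below the lowest old one. The young and old means were 1157 ± 31.7 and 1158 ± 36.6 (SD, n = 6 each), with a log2 fold change of -0.00 (95% interval -0.08 to 0.08, adjusted p = 0.983). Its direction turned with scaling, as 0.07 when libraries were scaled to the same total. In rejuvenated old MSCs Terf2ip was lower than in old MSCs (log2 fold change -0.11, SE 0.04, adjusted p = 0.0179), and without rejuvenated old replicate 1 the log2 fold change was -0.12 (adjusted p = 0.0210).

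Tinf2 and Acd encode TIN2 and TPP1, the bridge between the TRFs and POT1. Tinf2 was at 581 to 703 in young (median 653), 311 to 357 in old (median 326) and 289 to 326 in rejuvenated old libraries (median 297). All young libraries lay above the rest, and 5 of the 6 rejuvenated old libraries lay below the lowest old one. Tinf2 was 1.95-fold higher in young than in old MSCs (log2 fold change 0.96, SE 0.05, adjusted p = 5.70e-14). Against old MSCs, rejuvenated old MSCs had a log2 fold change of -0.14 (95% interval -0.25 to -0.03, adjusted p = 0.0422). That call was lost with DESeq2 on the recovered reads (adjusted p = 0.0520) and in a fit of the 2 groups alone, without the young libraries (0.0600). It was also lost with no filter on low values (0.0524) and with replicate numbers fitted as a block (0.0678). Leaving out any 1 of 7 libraries lost it too, with adjusted p up to 0.1. These were old replicates 1, 3 and 4 and rejuvenated old replicates 2, 4, 5 and 6. Over all alternatives its adjusted p ran from 0.0117 to 0.1, and without rejuvenated old replicate 1 it was 0.0211.

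Acd was at 1718 to 1869 in young (median 1770.4), 966 to 1123 in old (median 1039.9) and 912 to 1037 in rejuvenated old libraries (median 991). The young libraries again stood alone, and 5 of the 6 rejuvenated old libraries lay within the old range. Acd was 1.71-fold higher in young than in old MSCs (log2 fold change 0.78, SE 0.04, adjusted p = 3.17e-14). Between rejuvenated old and old MSCs the log2 fold change was -0.07 (95% interval -0.16 to 0.01, adjusted p = 0.158). Tinf2 and Acd each share exon sequence with a gene on the opposite strand, and the strand setting of the read counting is not given in the sources used here, so reads from the shared stretches cannot be told apart. By GENCODE M21 gene models Tinf2 shares 1540 bases, 31.2% of its exon length, with Gmpr2, a guanosine monophosphate reductase gene. Gmpr2 moved the other way, with a mean of 787 ± 43.3 in young and 1049.8 ± 60.8 in old MSCs (SD, n = 6 each). By GENCODE M21 Acd shares 1208 bases, 33.3% of its exon length, with Carmil2, which had a mean of 133 ± 15.9 in young and 36.1 ± 8.08 in old MSCs. By RefSeq the 3074 bases spanned by Acd share 41 with Carmil2 and 81 with Pard6a, at a mean of 285 ± 26.8 in young and 185 ± 23.3 in old MSCs, and all 5952 bases spanned by Tinf2 lie within Gmpr2. The annotation used for counting is not given in the sources used here. Terf2ip shares 108 bases with the predicted gene Gm6793, whose median was 21.1 in young and 19.7 in old MSCs.

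The promoters of Tinf2, Acd and Terf2, which were higher in young MSCs, and of Pot1b, which was lower, are shown 5′ to 3′ from 250 bases before to 50 after a RefSeq start site (GRCm38.p6, minus strand of each chromosome). Promoters were found for 7 of the 8 genes, all but Terf1, and those shown are of the genes whose young and old ranges did not overlap. The windows are chr14:55681768-55682067 for Tinf2, chr8:105701179-105701478 for Acd, chr8:107096496-107096795 for Terf2 and chr17:55712587-55712886 for Pot1b. Capitals mark matches on either strand to the GC box GGGCGG, the CCAAT box CCAAT, the cAMP response element TGACGTCA, the E-box CACGTG, the ETS site CCGGAAG and the TATA box TATAAA. Of 32851 promoters of this length, 35.7% held the GC box, 37.4% the CCAAT box, 1.79% the cAMP response element, 7.15% the E-box, 8.86% the ETS site and 13.6% the TATA box.
Tinf2: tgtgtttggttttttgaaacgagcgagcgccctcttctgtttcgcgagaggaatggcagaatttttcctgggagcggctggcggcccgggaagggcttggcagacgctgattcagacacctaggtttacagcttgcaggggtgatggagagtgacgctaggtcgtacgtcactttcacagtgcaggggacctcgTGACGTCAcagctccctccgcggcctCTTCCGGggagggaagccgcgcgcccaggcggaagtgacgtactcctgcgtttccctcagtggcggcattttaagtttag
Acd: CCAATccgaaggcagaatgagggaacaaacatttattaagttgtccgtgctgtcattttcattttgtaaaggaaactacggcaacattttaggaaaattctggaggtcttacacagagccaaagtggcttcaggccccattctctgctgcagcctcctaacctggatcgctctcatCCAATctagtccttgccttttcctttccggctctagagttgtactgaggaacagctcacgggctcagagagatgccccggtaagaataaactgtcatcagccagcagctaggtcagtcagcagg
Terf2: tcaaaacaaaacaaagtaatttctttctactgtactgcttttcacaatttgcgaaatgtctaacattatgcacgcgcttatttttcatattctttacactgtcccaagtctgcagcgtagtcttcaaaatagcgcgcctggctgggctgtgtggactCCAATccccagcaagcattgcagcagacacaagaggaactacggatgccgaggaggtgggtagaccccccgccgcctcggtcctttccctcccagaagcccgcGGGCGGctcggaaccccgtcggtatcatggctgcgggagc
Pot1b: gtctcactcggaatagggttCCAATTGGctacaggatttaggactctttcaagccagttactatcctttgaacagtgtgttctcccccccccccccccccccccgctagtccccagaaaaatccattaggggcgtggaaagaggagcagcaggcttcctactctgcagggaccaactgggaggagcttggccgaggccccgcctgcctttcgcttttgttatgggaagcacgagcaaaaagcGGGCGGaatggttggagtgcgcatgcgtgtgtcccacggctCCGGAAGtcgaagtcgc
Tinf2 held 1 cAMP response element and 1 ETS site, Acd 2 CCAAT boxes, and Terf2 1 GC box and 1 CCAAT box. Pot1b held 1 GC box, 1 ETS site and 2 CCAAT boxes, which overlap each other on opposite strands. Pot1a, also higher in young MSCs but with overlapping ranges, held 1 cAMP response element and 1 GC box. No motif was found in all of the Tinf2, Acd and Terf2 windows. Terf2 and Pot1b have 2 listed start sites each, and only the window of the first was searched. A match is a description of the letters and says nothing of binding.

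Pot1a and Pot1b encode the overhang-binding proteins. In mouse, POT1a is known to hold back the ATR response and POT1b to limit resection of the end. Pot1a was at 597 to 682 in young (median 653), 577 to 615 in old (median 595) and 558 to 662 in rejuvenated old libraries (median 599). The groups overlapped, though 5 of the 6 young libraries lay above the highest old one. Pot1a was 1.09-fold higher in young than in old MSCs (log2 fold change 0.12, SE 0.05, adjusted p = 0.0150). Pot1b was at 215 to 254 in young (median 224), 279 to 363 in old (median 335) and 318 to 432 in rejuvenated old libraries (median 353). All 6 young libraries lay below all libraries of the other groups. Pot1b was 1.42-fold higher in old than in young MSCs (log2 fold change -0.51, SE 0.08, adjusted p = 4.04e-06, for young against old). Between rejuvenated old and old MSCs neither passed the test, with a log2 fold change of 0.02 for Pot1a (adjusted p = 0.793) and 0.15 for Pot1b (95% interval -0.02 to 0.32, adjusted p = 0.143). Few stretches of 50 bases in their transcripts occur in any other gene, 0.186% for Pot1a and 1.36% for Pot1b.

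The share of Pot1b in the reads per kilobase of Pot1a and Pot1b does not depend on how a library was scaled. With the length of all annotated exons it was 34.1% to 39.6% in young libraries (median 36.7%), 44.3% to 50.7% in old (median 47.8%) and 45.4% to 54.4% in rejuvenated old (median 49.3%). Every young library lay below every old and rejuvenated old library, and the latter groups overlapped. No test was run on the share. Counts did not overlap for 73.9% of all genes between young and old MSCs, and for 70.5% between young and rejuvenated old MSCs. The mean shares were 36.8% ± 1.88, 47.4% ± 2.55 and 49.7% ± 3.47 (SD, n = 6 each). The level of the share rests on the gene models. With the longest coding transcript as the length, a choice made after the data were seen, the means were 24.1% ± 1.47, 32.9% ± 2.26 and 35% ± 3.17, with young libraries again below all others.

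**Figure D2:**
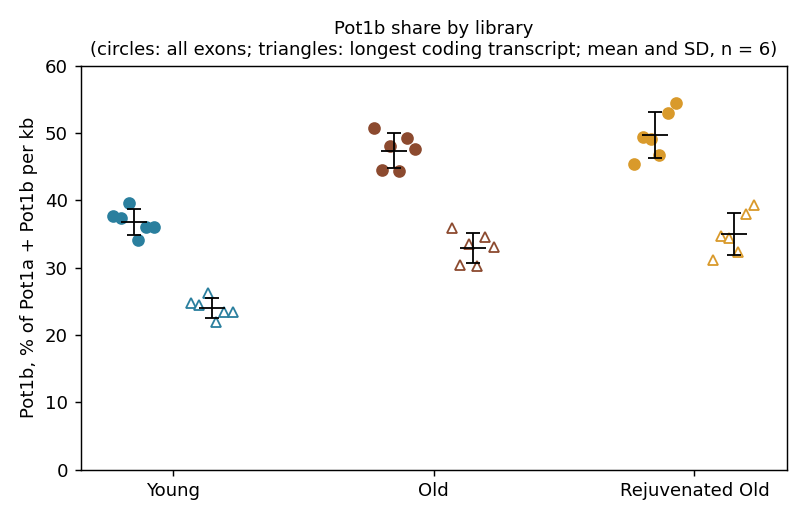
Pot1b as a percentage of Pot1a plus Pot1b, in normalized counts per kilobase (y axis, from 0), for each of the 18 libraries by group (x axis), with the mean and SD of 6. Circles use the length of all exons, with means of 36.8%, 47.4% and 49.7%, and triangles the longest coding transcript, with means of 24.1%, 32.9% and 35%.

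Tert, the catalytic subunit, was detected in every library at 85 to 165 reads. Its normalized count was 84.7 to 129.7 in young (median 99.8), 94.5 to 134 in old (median 115) and 103 to 156 in rejuvenated old libraries (median 129.7). The 3 groups overlapped, with the rejuvenated old libraries highest in median. The means were 102 ± 15.4, 116 ± 14.3 and 129 ± 17.4 (SD, n = 6 each). Neither the difference of young from old MSCs (log2 fold change -0.18, 95% interval -0.42 to 0.05, adjusted p = 0.134) nor that of rejuvenated old from old MSCs (0.15, 95% interval -0.08 to 0.39, adjusted p = 0.291) passed the test. Without young replicate 6, the highest young library, Tert was lower in young than in old MSCs (log2 fold change -0.25, adjusted p = 0.0358, in a range of 0.0358 to 0.608 over all alternatives). Tert lies on chromosome 13, where the 520 genes tested had a median log2 fold change of -0.30 between young and old MSCs. The RNA subunit Terc, which is mostly not polyadenylated, had 23 reads over all libraries of this poly-A selected kind and was not tested.

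Of the 8 genes, 3 differed between rejuvenated old and old MSCs, with Terf1 higher and Terf2ip and Tinf2 lower. Over all genes tested 41.6% differed, 21% higher and 20.6% lower. None of the 8 had groups whose ranges did not overlap, against 22% of all genes. The median log2 fold change of the 8 was 0.04 against 0.01 over all genes, and the median absolute log2 fold change was 0.13 against 0.15. For Terf1 the difference was toward the young level. For Tinf2 it was away from it, and Terf2ip had no difference between young and old MSCs to be measured against.

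All 8 genes differed between young and rejuvenated old MSCs, 6 higher and 2 lower in young MSCs, where 85.6% of all genes tested differed, 41.5% higher and 44.1% lower. In 5 of the 8 the ranges did not overlap, against 70.5% of all genes. Both comparisons of young MSCs share the young libraries, and those against old MSCs share the old ones. Tinf2 was 2.14-fold higher in young than in rejuvenated old MSCs (log2 fold change 1.10, SE 0.05, adjusted p = 4.77e-15) and Acd 1.81-fold (log2 fold change 0.85, SE 0.04, adjusted p = 5.82e-15). Terf1 was 1.74-fold higher (log2 fold change 0.80, SE 0.07) and Terf2 1.61-fold (log2 fold change 0.69, SE 0.04). Terf2ip (log2 fold change 0.11, adjusted p = 0.00802) and Pot1a (0.11, adjusted p = 0.0336) differed little. Pot1b was 1.57-fold higher in rejuvenated old MSCs (log2 fold change -0.65, SE 0.08, for young against rejuvenated old), and Tert 1.26-fold (-0.34, SE 0.11, adjusted p = 0.00848). The median over the 520 genes tested on chromosome 13, where Tert lies, was -0.30 in this comparison, near the value of Tert itself. The call of Tert was lost with libraries scaled to the same total (adjusted p = 0.0501) or by quantile normalization (adjusted p = 0.118), with adjusted p from 0.00162 to 0.118 over all alternatives. The call of Pot1a was lost in a fit of the 2 groups alone (adjusted p = 0.0608) and with replicate numbers fitted as a block (0.0508). It was also lost without any 1 of young replicates 2, 4 and 6 and rejuvenated old replicates 2 and 5 (adjusted p up to 0.0926). Without rejuvenated old replicate 1 all 8 genes were called.

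**Figure D3:**
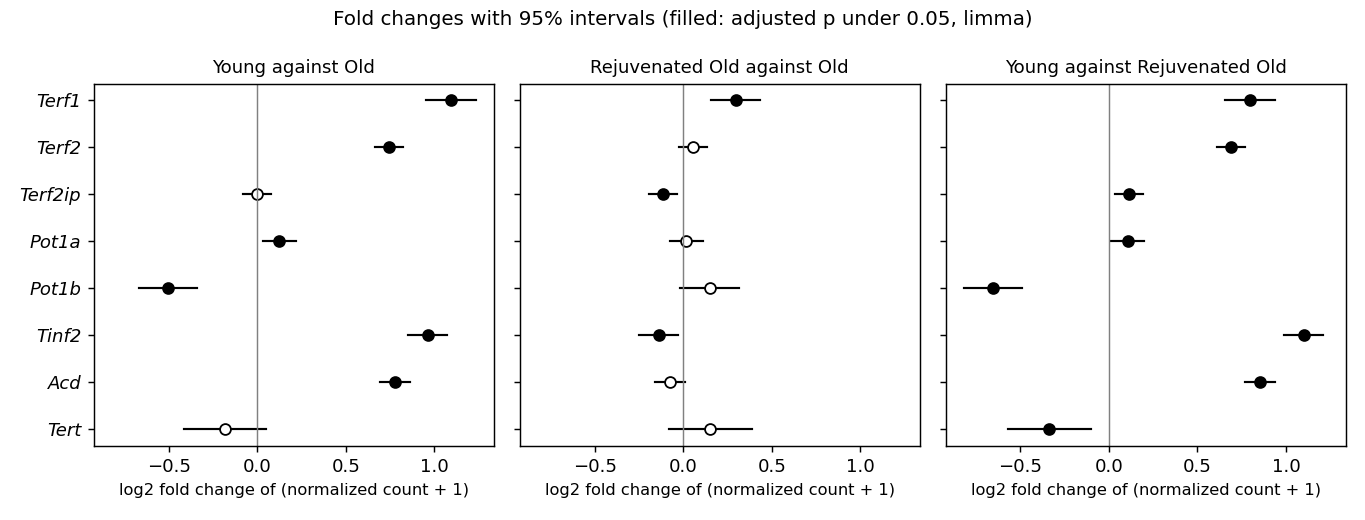
Log2 fold changes of the normalized count + 1 (x axis) of the 8 genes (y axis) in the 3 comparisons, with 95% intervals, filled where the adjusted p was under 0.05 by limma over all genes tested. Terf1, Terf2, Tinf2 and Acd lie at 0.74 to 1.09 for young against old MSCs and at -0.14 to 0.30 for rejuvenated old against old MSCs.

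Levels were compared between the genes as normalized counts per kilobase of all annotated exons. In young MSCs the order from high to low was Acd (493 ± 16.9), Terf2 (459 ± 21.6), Terf2ip (233 ± 6.39), Terf1 (168 ± 10.1), Tinf2 (131 ± 8.43), Pot1a (74.8 ± 3.52), Pot1b (43.5 ± 2.88) and Tert (17.8 ± 2.68; SD, n = 6 each). Only Acd and Terf2 overlapped as neighbours in that order. In old MSCs Acd (288 ± 17.7) and Terf2 (274 ± 7.74) overlapped, Terf2ip followed at 234 ± 7.38, and Terf1 (78.6 ± 7.43), Pot1a (68.6 ± 1.65), Tinf2 (67.1 ± 3.47) and Pot1b (62.1 ± 6.83) formed a run of overlapping neighbours above Tert (20.2 ± 2.49). In rejuvenated old MSCs Terf2 (285 ± 14.5) and Acd (273 ± 12.3) overlapped, Terf1 (96.5 ± 8.53) stood clear of Pot1a (69.5 ± 4.44), and Pot1b (68.9 ± 7.90) overlapped Pot1a above it and Tinf2 (61 ± 2.91) below it. The order depended on the length used. With the longest coding transcript, Terf2 led in every group, at 791 ± 37.2 in young and 472 ± 13.3 in old MSCs, and its range stood clear of Acd (567 ± 19.4 and 331 ± 20.4). Tert was the lowest of the 8 with either length and in each group.

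**Figure D4:**
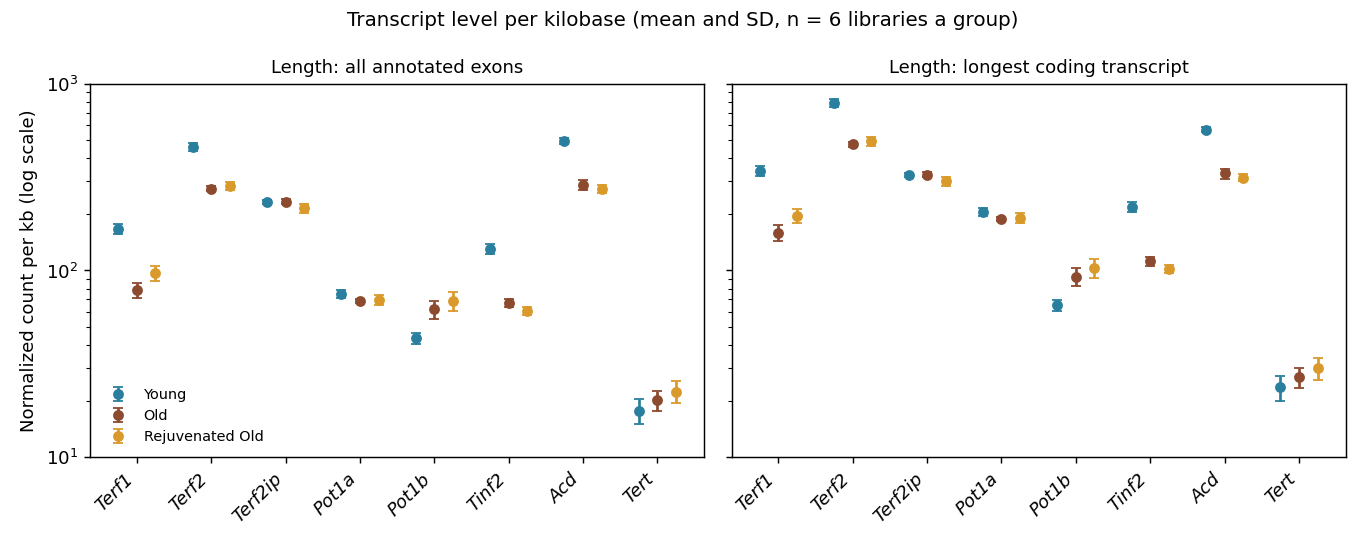
Normalized counts per kilobase (y axis, log scale) of the 8 genes (x axis) in young, old and rejuvenated old MSCs, as mean and SD of 6 libraries, with the length of all exons (left) or of the longest coding transcript (right). Tert is lowest with either length, at 17.8 to 22.5 and 23.7 to 29.9, and Pot1b is the shelterin gene with the lowest level in young MSCs.

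The makeup of the shelterin transcripts was described by share, without a test. The count ranges of 73.9% of all genes tested did not overlap between young and old MSCs, and of 70.5% between young and rejuvenated old MSCs. The 7 shelterin genes had summed normalized counts per kilobase of exon of 1603 ± 36.8, 1072 ± 27.3 and 1069.7 ± 26.4 for young, old and rejuvenated old MSCs (SD, n = 6 each). Terf2ip made up 14.1% to 15% of that sum in young, 21.2% to 22.4% in old and 19% to 21.1% in rejuvenated old libraries, so all young libraries lay below the other groups. Acd made up 30.5% to 31.6% in young and 25.1% to 28.7% in old libraries. Terf1 made up 9.35% to 11% in young, 6.4% to 8.08% in old and 8% to 9.82% in rejuvenated old libraries, and its rejuvenated old range overlapped both others. Shares within a sum are not independent, and a gene with a steady count gains share where the others are lower. With the longest coding transcript the mean shares of Terf2ip for young, old and rejuvenated old MSCs were 12.9%, 19.3% and 17.7%.

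The genes most alike in pattern were found by the root mean square (RMS) difference of log2(normalized count + 1), centred on each gene's mean, over the 18 libraries. Nearest to Terf1 was Snrpa1 (RMS 0.07), and nearest to Terf2 were Fbxo21 (0.06) and Dhx30 (0.06). Terf2ip was nearest to Rcbtb2 (0.05) and Ikbip (0.05), Tinf2 to Cbfb (0.06) and Ide (0.07), and Acd to Rab3il1 (0.06) and Cbx6 (0.06). Pot1a was nearest to Khdrbs1 (0.05) and Pphln1 (0.06), and Pot1b to Clk1 (0.09) and Sf3b1 (0.10). Tert, the gene with the fewest reads, was nearest to Frg2f1 (0.11) and Zfp758 (0.14). None of these was another of the 8 genes, and the pattern says nothing of shared control.

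Other telomere genes were taken from lists of 70 genes, of which 66 were tested. Between young and old MSCs 34 were higher in young MSCs, 22 were lower and 10 did not pass, so that 84.8% differed, against 85.7% of all genes tested. Between rejuvenated old and old MSCs 19 were higher, 6 lower and 41 did not pass (37.9% differed, against 41.6% of all genes). Between young and rejuvenated old MSCs 31 were higher, 24 lower and 11 did not pass (83.3% differed, against 85.6%). The fold changes between young and old MSCs also differed by chromosome, with medians over the genes tested from -0.75 on chromosome 16 to 0.61 on chromosome 7, and of -0.69 on chromosome 1 and -0.46 on chromosome 12.

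Of 15 tested genes for the telomerase particle and its assembly, 10 were higher and 4 lower in young than in old MSCs, with a median log2 fold change of 0.39 against -0.02 over all genes, of which 85.7% differed. Dkc1, on chromosome X, whose product dyskerin binds and stabilizes the telomerase RNA, was at 1310.2 to 1574 in young, 596 to 765 in old and 682 to 989 in rejuvenated old libraries. It was highest of the list against old MSCs (log2 fold change 1.07, SE 0.08, adjusted p = 9.35e-12) and against rejuvenated old MSCs (0.79, SE 0.08). Parn, a deadenylase that matures the RNA, was lowest, at -0.79 (SE 0.04, adjusted p = 6.76e-15) and -0.83 (SE 0.04). It lies on chromosome 16, where the median log2 fold change between young and old MSCs was -0.75. In rejuvenated old against old MSCs 7 of the 15 were higher and 1 lower (median 0.11 against 0.01 over all genes, of which 21% were higher and 20.6% lower). Gar1, a further protein of the particle, was at 933 to 1127 in rejuvenated old and 737 to 790.3 in old libraries (log2 fold change 0.44, SE 0.05, adjusted p = 1.06e-07). Its ranges did not overlap, as in 22% of all genes tested. Smg6 was the one lower, at -0.10 (SE 0.03, adjusted p = 0.0117). Tert itself passed the test in neither comparison with old MSCs.

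The CST complex and its polymerase alpha-primase fill in the strand opposite the overhang. Of 7 genes, 3 were higher and 2 lower in young than in old MSCs (median 0.04 against -0.02 over all genes, of which 85.7% differed). Ten1, on chromosome 11, was at 480 to 591 in young and 206 to 235 in old libraries (log2 fold change 1.27, SE 0.07, adjusted p = 1.90e-14), and 1.36 (SE 0.07) against rejuvenated old MSCs. Prim2, on chromosome 1, was lowest at -1.19 (SE 0.06, adjusted p = 2.54e-14) and -1.37 (SE 0.06). Of the 7, 2 were higher in rejuvenated old than in old MSCs, Stn1 and Prim2, and 1 was lower, Ctc1, where 41.6% of all genes differed. Prim2, named here after its value was seen (0.18, adjusted p = 0.0273), lost its call when replicate numbers were fitted as a block (adjusted p = 0.0549) and without old replicates 4 (0.0808) or 5 (0.0728) or rejuvenated old replicate 5 (0.0548). Among the CST genes themselves rejuvenated old MSCs had more Stn1 than old MSCs (log2 fold change 0.34, SE 0.04, adjusted p = 5.60e-07) and less Ctc1 (-0.27, SE 0.04, adjusted p = 3.14e-05). Stn1 was at 1066 to 1225 in rejuvenated old and 865 to 981 in old libraries, without overlap. Ctc1 was at 1104 to 1241 and 1319.6 to 1499.8, also without overlap, as in 22% of all genes tested.

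Of 18 genes for telomere replication and partners of shelterin, 6 were higher and 7 lower in young than in old MSCs (median -0.05 against -0.02 over all genes, of which 85.7% differed). The helicase gene Recql4, on chromosome 15, was highest, at 278 to 391 in young, 83.6 to 108 in old and 90.8 to 202 in rejuvenated old libraries. Its log2 fold change was 1.75 for young against old (SE 0.14, adjusted p = 4.78e-11), 0.50 for rejuvenated old against old (adjusted p = 0.00572) and 1.25 for young against rejuvenated old MSCs. Without rejuvenated old replicate 1, its highest rejuvenated old library, the rejuvenated old against old log2 fold change was 0.39 (adjusted p = 0.0151). The nuclease gene Exo1, on chromosome 1, was lowest for young against old (-0.90, SE 0.11, adjusted p = 1.65e-07) and young against rejuvenated old MSCs (-1.27). In rejuvenated old against old MSCs 3 of the 18 were higher and 2 lower, where 41.6% of all genes differed. Of these 2 Smarcal1, a fork-remodelling ATPase gene, had the lower fold change (-0.15, adjusted p = 0.0112).

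**Figure D5:**
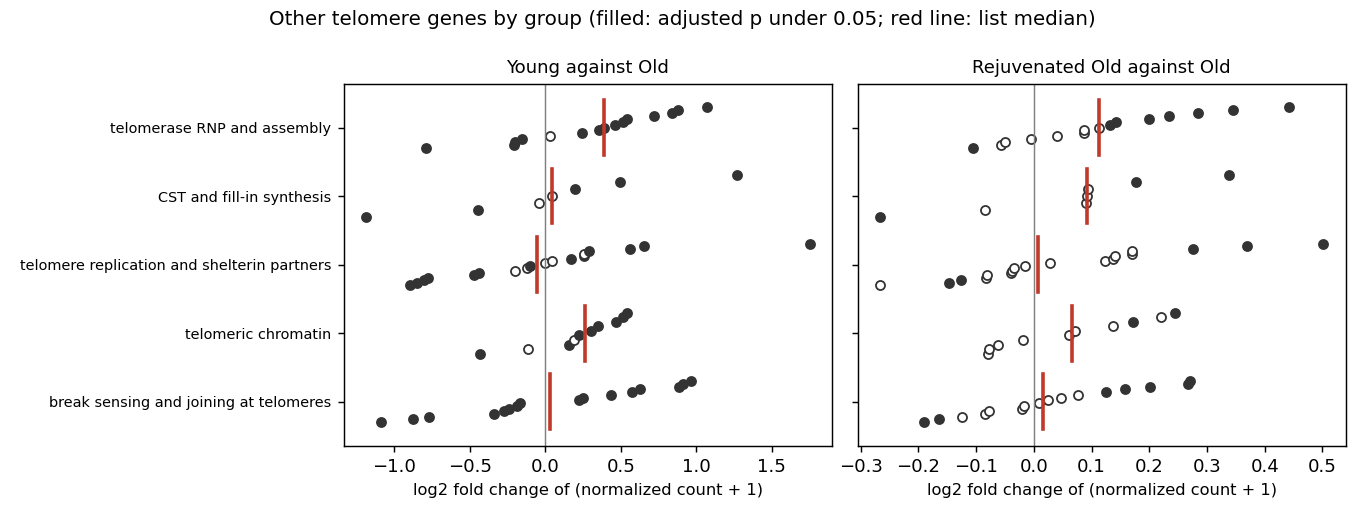
Log2 fold changes of the normalized count + 1 (x axis, with its own range in each panel) of 66 other telomere genes in 5 lists (y axis), for young against old (left) and rejuvenated old against old MSCs (right), filled where the adjusted p was under 0.05, with the list median as a red line. The telomerase list has medians of 0.39 and 0.11, against -0.02 and 0.01 over all genes tested.

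Of 10 telomeric chromatin genes, 7 were higher and 1 lower in young than in old MSCs (median 0.26 against -0.02 over all genes, of which 41.6% were higher and 44.1% lower), with the heterochromatin protein gene Cbx5, on chromosome 15, highest (log2 fold change 0.54, adjusted p = 2.04e-14; 0.56 against rejuvenated old MSCs). The histone gene H3f3a, on chromosome 1, was lowest (-0.43, and -0.60 against rejuvenated old MSCs). In rejuvenated old against old MSCs 2 of the 10 were higher and 0 lower, where 41.6% of all genes differed: Suv39h1 (0.24, adjusted p = 0.000296) and H3f3a (0.17). Of 16 genes that sense and join breaks at uncapped ends, 8 were higher and 8 lower in young than in old MSCs (median 0.03 against -0.02 over all genes, of which 85.7% differed). Atm, on chromosome 9, the kinase that TRF2 holds back, was highest (0.97, SE 0.06, adjusted p = 1.53e-12; 0.99 against rejuvenated old MSCs). Prkdc, on chromosome 16, was lowest (-1.09, SE 0.05, adjusted p = 4.12e-15; -0.97 against rejuvenated old MSCs). In rejuvenated old against old MSCs 5 of the 16 were higher and 2 lower, where 41.6% of all genes differed, with Atr, the kinase that POT1 holds back, highest (0.27, adjusted p = 3.92e-05) and Lig4 lowest (-0.19, adjusted p = 0.0238). The call of Lig4 was lost without old replicate 1 (adjusted p = 0.0534) and without rejuvenated old replicates 2 (0.0585) or 5 (0.0695). The meiotic adaptor genes Terb1, Terb2 and Majin had at most 11 reads in a library and were not tested.

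A list of 26 proliferation genes was set beside the shelterin genes. In young against old MSCs 5 were higher and 17 lower, with a median log2 fold change of -0.33, against -0.02 over all genes tested, of which 85.7% differed. In rejuvenated old against old MSCs 11 were higher and 0 lower (median 0.20), against a median of 0.01 over all genes, of which 41.6% differed. Its part in the results on the 8 genes was not tested.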

How the data were processed

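Libraries of 18 MSC cultures, 6 for each of the 3 groups, were made with a stranded poly-A kit per the labels. The authors aligned reads to mm10 with HISAT2, used StringTie and featureCounts, and normalized with DESeq2. Versions, annotation and strand setting are not given in the sources used here. Each deposited value is a signal, a gene's read count divided by 1 size factor per library. Whole reads were recovered for 100% of values within 0.01 of a read. The test was limma 3.58.1 on log2(value + 1) (R 4.3.3), with a prior variance following the mean, all 3 groups in one fit, over 14353 genes with a mean of at least 10. Calls had a Benjamini-Hochberg adjusted p under 0.05. Fold changes are differences on that scale, which understates changes of low genes. The fit was tested on simulated data. Few genes changed in that simulation, unlike in these data, so it says nothing of calls where most genes differ. On recovered reads of these genes, DESeq2 1.42.0 called 12259, 6345 and 12260 genes for young against old, rejuvenated old against old and young against rejuvenated old MSCs, and edgeR 4.0.16 with TMM called 12276, 6213 and 12298. No pair of libraries of the same group agreed within sampling noise.

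Exons and overlaps came from GENCODE M21 and promoters from RefSeq GRCm38.p6, with Python 3.11.15, pandas 2.3.3 and matplotlib 3.10.9. The genes named are the 8 members, the called gene with the highest and lowest fold change of each telomere list in each comparison, the 2 genes with a symbol that is not predicted nearest to each member in pattern (for Terf1 the nearest alone, as the next is not reported here), and genes with overlapping exons. Prim2 for rejuvenated old against old MSCs, genes named from the marker lists and those named for the check of libraries were chosen after their values were seen. The members and lists were chosen with earlier results of these data known. Alternatives covered the pseudocount, the low-value filter, scaling, fits of 2 groups, a single prior variance, a replicate block, both count tests, an adjusted p under 0.01, exon length and leaving out each library.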

Additional observations from a re-analysis of the deposited data

Results flagged for a closer look

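In groups of 6, a library was singled out where its gap to the nearest other exceeded Dixon's 95% critical share of the group's range. Of 127 groups of values checked 12 met this, where chance gives about 1 in 20. None was a group of the 8 telomere genes or of the Pot1b share. In rejuvenated old MSCs these were Cd34 (402 in replicate 1, next highest 41.9), Thy1 (21.6, next 0.951), Atm (373, next lowest 455), Cbx5 (3279.8, next highest 3072) and Eng (8158, next 7772). In young MSCs they were Suv39h1 (741, next lowest 835), Gmpr2 (705, next lowest 789), Carmil2 (162, next highest 134), Gm6793 (74.9, next 26.8), C1qc (3.09, the others at 0) and the Y-linked sum (5.15, next 1.07). In old MSCs it was C1qc (1912, next highest 1676).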

How the results depend on the processing

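The 64 results recomputed gave 1879 alternative values, of which 1828 kept their direction and side of the threshold, or for counts and shares stayed close to the main value. Terf1, Terf2, Tinf2 and Acd were called higher, and Pot1b lower, in young than in old MSCs in every alternative run, and rejuvenated old MSCs had more Terf1 and less Terf2ip than old MSCs in every alternative with an adjusted p under 0.05. Terf2ip, near 0 and not called for young against old MSCs, changed sign with the same total (0.073), the same 75th percentile (0.033), quantile normalization (0.038), DESeq2 (0.010) and edgeR (0.0042), and ran from -0.019 to 0.011 when each library was left out. Scaling to the same total moved the median of all genes from -0.02 to 0.05. Tinf2 for rejuvenated old against old MSCs lost its call with no filter (-0.14, adjusted p = 0.0524, with 21697 genes tested), the 2 groups alone (-0.14, 0.0600), the replicate block (-0.14, 0.0678) and DESeq2 (-0.14, 0.0520), and ran from -0.16 to -0.12 when each library was left out. Tert for young against rejuvenated old MSCs lost its call with the same total (-0.25, 0.0501) and quantile normalization (-0.19, 0.118). Pot1a in that comparison lost its call with the 2 groups alone (0.11, 0.0608) and the replicate block (0.11, 0.0508), and ran from 0.085 to 0.13 when each library was left out, where its adjusted p reached 0.0926. At an adjusted p under 0.01, calls fell away for Pot1a for young against old (0.12) and young against rejuvenated old MSCs (0.11). They also fell away for Terf2ip (-0.11) and Tinf2 (-0.14) for rejuvenated old against old MSCs. There 1 of the 8 genes and 15 of the other telomere genes were called, in place of 3 and 25. The share of all genes called at that threshold is not given here. With each library left out in turn, 6 to 7, 2 to 3 and 7 to 8 of the 8 genes were called for young against old, rejuvenated old against old and young against rejuvenated old MSCs. Of all 14353 genes tested, these fits called 12141 to 12357, 5442 to 5995 and 12117 to 12288 in the same order. Tert for young against old MSCs then ran from -0.25 to -0.13 and Pot1a for rejuvenated old against old MSCs from -0.010 to 0.039. In the latter comparison Tert ran from 0.098 to 0.22, Pot1b from 0.098 to 0.19 and Terf2 from 0.041 to 0.082. Tert, Pot1b and Terf2 were not called there in any of these fits. The cause of these changes was not tested. The replicate numbers did not pair the cultures: deviations of same-numbered libraries had a correlation of -0.15 to 0.07, with 0 of 18 pairs over 0.1, and 1 of 18 matched best with its own number. The block called 12219, 5769 and 12210 genes in place of 12297, 5971 and 12288, and changed no call of the 8 genes other than those given. Tert had the fewest reads of the 8 genes, at 85 to 165 a library.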

Other observations

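The other marker lists were measured as well. The 10 marrow stromal markers were split between young and old MSCs, 5 higher and 5 lower in young, where 85.7% of all genes tested differed. In rejuvenated old against old MSCs 2 were higher and 5 lower, where 41.6% of all genes differed, with Ly6a (Sca-1) highest (log2 fold change 1.07, SE 0.10) and Col1a1 lowest (-0.41, SE 0.05). Of 5 haematopoietic genes 3 were tested, with Cd34 higher and the other 2 lower in young than in old MSCs. Of 5 endothelial genes 2 were tested, and both were higher in young than in old MSCs. The 6 lymphoid genes had at most 7 reads in a library.

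Transcript counts say nothing of telomere length, telomerase activity or shelterin protein. Age, the Y-linked difference, the macrophage transcripts and the levels of Cd34, Thy1 and Eng changed together between the young and the other cultures. So did the median fold changes of chromosomes 1, 7, 12, 13 and 16, and none of these can be told apart. Most genes differed between young and old MSCs, so a called gene is common there. Tinf2 and Acd share annotated exons with genes on the opposite strand, and how reads there were counted is not given in the sources used here.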
